A study of Mus musculus with 56 samples.

Results

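The 32 genes described here encode the chaperones and disulfide isomerases of the endoplasmic reticulum (ER), the sensors and transcription factors of the unfolded protein response, the ER degradation machinery, and parts of the channel and coat that take proteins into and out of the ER. They were chosen by name and known function, and all 32 were found among the 47937 Ensembl gene identifiers of both count tables. All 32 also passed the filter on low counts in each table. Messenger RNA had been sequenced from CD4 T cells of spleen and lymph node of C57BL/6 mice, activated with antibodies to CD3 and CD28 plus IL-2 and cultured to day 4 under TH1, TH2, TH17 or Treg polarizing conditions. The study asked how polyamine synthesis and the hypusine made from it bear on helper T cell fate, and set knockout (KO) against wild-type (WT) cells in each subset.

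Odc KO cells came from Odc flox/flox mice that carried CD4-cre. Odc (gene symbol Odc1) encodes ornithine decarboxylase, which makes putrescine, the precursor of spermidine and spermine. Dohh KO cells came from Dohh flox/flox mice that carried CD4-cre. Dohh encodes deoxyhypusine hydroxylase, the enzyme of the last step by which a lysine of the translation factor eIF5A becomes hypusine, and the first step of that route uses spermidine. WT mice of either line lacked cre, and the animals were young adults of both sexes. The CD4 promoter is active in the thymus, so the deletion preceded the culture, and since only KO mice carried cre, effects of cre and of the deletion cannot be told apart. The Odc table held 4 WT and 4 KO libraries per subset, except TH2, which had KO replicates 2, 3 and 4 only (KO replicate 1 was not analysed here). The Dohh table held 3 WT and 3 KO libraries per subset, with its own WT cells.

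The ER is where secreted and membrane proteins fold. Proteins enter through the Sec61 channel, bind the HSP70 family chaperone BiP and its DnaJ partners or the lectins calnexin and calreticulin, form disulfide bonds with the help of protein disulfide isomerases, and leave in COPII vesicles, while those that do not fold are sent back to the cytosol for degradation. When unfolded proteins build up, the sensors IRE1, ATF6 and PERK start the unfolded protein response. IRE1 splices Xbp1 mRNA to give an active transcription factor, cleaved ATF6 enters the nucleus, and PERK slows translation and raises ATF4. In lymphocytes the Xbp1 route is known best for the secretory programme of plasma cells, and helper T cells that make large amounts of cytokine also draw on it.

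The Odc libraries held 5905374 to 9145214 counts and the Dohh libraries 6572148 to 12576933. Levels are given as CPM, the counts of a gene relative to the TMM-scaled total of its library, and each table was scaled by itself. A total of 3 counts, the limit that a count of 0 allows, was worth 0.31 to 0.499 CPM in Odc and 0.226 to 0.473 CPM in Dohh libraries. Of the 32 genes only Derl3 came near these limits, with 3 counts in its lowest Odc library and 1 in its lowest Dohh library.

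The targeted genes were examined first. Odc1 stood at 421, 461, 418 and 739 CPM in TH1 WT replicates 1 to 4 and at 424, 679.8, 678 and 659 in the libraries labelled TH1 KO. In TH2 cells it stood at 482, 549.5, 499.7 and 732 CPM in WT and 499.6, 492 and 487 in those labelled KO. In Treg cells it stood at 357, 401, 376 and 493 CPM in WT and 482, 457, 493 and 443 in those labelled KO. The WT and KO libraries overlapped in all 3 of these subsets. In TH17 cells WT stood at 669.5, 673, 731 and 859.9 CPM and KO at 618, 595, 476 and 525, without overlap. Odc1 fell there by 0.40 ± 0.16 on the log2 scale (SE; edgeR's quasi-likelihood test, Benjamini-Hochberg adjusted p = 0.0416), while adjusted p was 0.176 in TH1, 0.339 in TH2 and 0.282 in Treg cells. That call did not pass without any of WT replicates 3 and 4 and KO replicates 2, 3 and 4.

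Dohh in the Dohh table stood at 38.1, 37.8 and 34.7 CPM in TH1 WT and 103, 148 and 47.5 in TH1 KO, and at 37.0, 45.8 and 34.8 in TH2 WT and 71.6, 88.6 and 92.2 in TH2 KO. It stood at 45.9, 35.0 and 40.4 CPM in TH17 WT and 65.5, 45.2 and 50.2 in TH17 KO, and at 31.5, 41.5 and 40.4 in Treg WT and 78.3, 79.8 and 93.4 in Treg KO. Thus Dohh rose rather than fell in TH1, TH2 and Treg cells labelled KO (log2 fold change 1.43, 1.10 and 1.15), with adjusted p = 0.189 in TH17 cells, and it rose in all 4 subsets of the Odc table. The gene counts take in exons inside and outside the floxed part, and 47.5% of the exon bases of Dohh are shared with the gene model Gm48551 on the same strand, so these counts do not check the labels. WT and KO below mean libraries labelled so, and every direction given is from WT-labelled to KO-labelled libraries.

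The 6 T cell genes Cd3e, Cd3d, Cd4, Trac, Cd28 and Lck were present in every group, their sum running from 1393 to 3382 CPM in Odc and from 1119 to 3385 CPM in Dohh libraries. The sum was lower in KO than in WT without overlap in every Dohh subset (in TH2 cells 2479 to 2702 CPM in WT and 1119 to 1553 in KO) and in Odc TH1 and TH2 cells. Cd4 itself stood at 750.3 to 897 CPM in Dohh TH1 WT and 22.1 to 44.5 in KO, Trac at 397 to 452 and 79.1 to 161 and Cd28 at 275 to 364 and 50.5 to 203, and all 3 were lower in KO without overlap in the other Dohh subsets too. The other T cell genes did not share this in Dohh TH1 cells, where Lck stood at 652 to 766 CPM in WT and 748 to 897 in KO, Cd3d at 522 to 604 and 448 to 1126 and Cd3e at 231 to 261 and 124 to 326. In Dohh TH2 cells Lck (632 to 712 CPM in WT and 435 to 558 in KO) and Cd3e (186 to 226 and 118 to 164) were lower in KO without overlap. Cd3d overlapped there (469 to 610 and 355 to 558). Lck, Cd3d and Cd3e each overlapped between WT and KO in Dohh TH17 and Treg cells. Markers of other cells also moved with genotype. The summed level of 6 basophil and mast cell genes was 1.46 to 2.83 CPM in Dohh TH17 WT and 193 to 1118 in KO, and higher in KO without overlap in all subsets of both tables. That of 5 B cell genes was 25.6 to 91.8 CPM in Odc TH2 WT and 281 to 486 in KO, apart in every Odc subset and in Dohh Treg cells, and overlapped in the other Dohh subsets. The 6 myeloid genes, of which Itgam was at 0 in every Dohh library, summed to 22.2 to 24.4 CPM in Dohh TH17 WT and 554 to 11412 in KO, the 2 highest being KO replicates 2 and 3, and to 17.5 to 20.3 in Treg WT and 331 to 4690.2 in KO. In the Odc table they summed to 13.6 to 39.6 CPM in TH17 WT and 40.9 to 569 in KO, and to 14.5 to 32.8 in Treg WT and 90.1 to 743 in KO. The myeloid sum was higher in KO without overlap in all subsets of both tables. Plasma cells are rich in ER chaperones. The 5 plasma cell genes summed to 21.1 to 45.0 CPM in Odc TH1 WT and 109.9 to 425 in KO, mostly Igkc, which was at 0 in every Dohh library, as was Tnfrsf17. They were higher in KO without overlap in the other Odc subsets too (67.1 to 123 and 407 to 634 in TH2, 26.2 to 34.5 and 64.8 to 82.9 in TH17, 5.68 to 12.0 and 19.8 to 95.1 in Treg cells). Sdc1, a surface marker of plasma cells, went the other way in Odc TH1 and TH2 cells, at 11.4 to 16.4 CPM in TH1 WT and 5.21 to 10.7 in KO and 42.7 to 48.6 in TH2 WT and 12.7 to 24.0 in KO. The plasma cell sum was 24.5 to 30.2 CPM in Dohh TH1 WT and 5.42 to 10.1 in KO, of which Sdc1 made up 23.4 to 29.5 and 4.91 to 7.06. It was 64.5 to 96.6 CPM in Dohh TH2 WT and 34.8 to 53.5 in KO, and the groups overlapped in Dohh TH17 and Treg cells, where it reached 41.2 and 48.6 in KO. Jchain stood at 0 to 0.448 CPM in Dohh TH2 WT and 1.26 to 6.15 in KO. One chain of the CD8 receptor, Cd8a, stood at 6.30 to 29.7 CPM in Odc Treg WT and 132 to 204 in KO, at 5.35 to 11.1 in Dohh Treg WT and 162 to 322 in KO, and at 4.59 to 7.99 in Dohh TH17 WT and 76.1 to 137 in KO. The other chain, Cd8b1, did not move with it: it stood at 9.92 to 12.0 CPM in Odc Treg WT and 10.4 to 29.6 in KO, at 12.5 to 15.8 and 11.4 to 16.4 in Dohh Treg cells and at 17.0 to 19.98 and 11.6 to 14.4 in Dohh TH17 cells. The part of these cells in the results was not tested. In bulk samples, fewer cells of a type and less RNA per cell cannot be told apart.

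The classical promoter signature of the ATF6 route is the ER stress response element (ERSE, CCAAT and CCACG with any 9 bases between), with a shorter form, ERSE-II (ATTGG and CCACG with any 1 base between). Both were sought on either strand of the RefSeq promoter windows (GRCm38.p6, 250 bases before to 50 after the gene start), which 26 of the 32 genes had. ERSE was in 9 of these 26 genes (34.6%) and in 37 of all 27025 genes with a window (0.137%). ERSE-II was in 2 (7.69%) and in 12 of all genes (0.0444%). The XBP1 site TGACGTGG was in 1 gene, Sec24d, against 0.714% of all genes, and the ATF4 site TGATGNAAT in 0 against 1.08%. The matches are printed because the changes of the genes that carry them are set against those of the other genes below. An overlap of matches was allowed. Capitals mark the fixed letters, each match is read 5′ to 3′ on the gene's own strand (a match to the other strand reads CGTGG first and ATTGG last), and positions count from 1 at the gene start, with bases before it negative.
Hspa5, ERSE, chr2:34772025-34772043, plus strand, first base at -65: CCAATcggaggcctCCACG
Dnajc3, ERSE, chr14:118937827-118937845, plus strand, first base at -105: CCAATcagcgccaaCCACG
Dnajb11, ERSE-II, chr16:22857852-22857862, plus strand, first base at 8: ATTGGcCCACG
Hsp90b1, ERSE, chr10:86705638-86705656, minus strand, first base at -212: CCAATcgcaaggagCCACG
Hsp90b1, ERSE, chr10:86705533-86705551, minus strand, first base at -107: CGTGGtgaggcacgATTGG
Creld2, ERSE, chr15:88819520-88819538, plus strand, first base at -126: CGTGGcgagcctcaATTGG
Calr, ERSE, chr8:84847075-84847093, minus strand, first base at -162: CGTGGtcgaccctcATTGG
Canx, ERSE, chr11:50325800-50325818, minus strand, first base at -145: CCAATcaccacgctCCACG
Pdia6, ERSE, chr12:17266491-17266509, plus strand, first base at -98: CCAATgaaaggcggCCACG
Syvn1, ERSE, chr19:6046532-6046550, plus strand, first base at -44: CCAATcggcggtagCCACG
Herpud1, ERSE-II, chr8:94386377-94386387, plus strand, first base at -52: ATTGGgCCACG
Derl3, ERSE, chr10:75893242-75893260, plus strand, first base at -156: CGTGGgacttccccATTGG

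Hspa5, which encodes BiP, carried 1 ERSE and rose in all 8 comparisons below. P4hb, which encodes protein disulfide isomerase, carried none, and fell in 3 comparisons and rose in 0. Other genes went against this pair: Sdf2l1 and Pdia3 carried none and rose in all 8, and Derl3 carried an ERSE and fell in 3. The whole windows of Hspa5 and P4hb follow, with the ERSE in capitals.
Hspa5, chr2:34771840-34772139, plus strand: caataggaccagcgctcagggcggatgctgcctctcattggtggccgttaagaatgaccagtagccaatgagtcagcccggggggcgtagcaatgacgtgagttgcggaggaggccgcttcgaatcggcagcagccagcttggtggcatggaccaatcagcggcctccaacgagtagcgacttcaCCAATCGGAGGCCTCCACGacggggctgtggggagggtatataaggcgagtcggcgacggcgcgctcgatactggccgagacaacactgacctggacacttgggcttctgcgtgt
P4hb, chr11:120573204-120573503, minus strand: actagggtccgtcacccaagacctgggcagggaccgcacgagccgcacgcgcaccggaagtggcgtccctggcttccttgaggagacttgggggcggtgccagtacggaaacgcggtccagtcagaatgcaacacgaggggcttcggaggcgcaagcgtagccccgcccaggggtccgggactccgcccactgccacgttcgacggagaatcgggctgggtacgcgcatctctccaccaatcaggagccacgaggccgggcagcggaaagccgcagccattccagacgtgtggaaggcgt

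In both knockouts and all 4 subsets more ER genes rose than fell, and the chaperones led. A total of 9 genes rose in all 8 comparisons: the HSP70 chaperone gene Hspa5, its relative Hyou1, the co-chaperone genes Dnajb11 and Sdf2l1, the HSP90 paralogue gene Hsp90b1, the folding factor genes Manf and Creld2, the lectin chaperone gene Calr and the disulfide isomerase gene Pdia3. That is 28.1% of the 32, against 6.1% of the 12924 genes tested in both tables, and 0 of the 32 fell in all 8, against 4.84%. In all, 22 genes rose in at least 1 comparison and fell in none, against 39% of all genes, 6 fell in at least 1 and rose in none (P4hb, Xbp1, Ern1, Eif2ak3, Sel1l and Derl3), against 37.7%, and 4 did both (Hspa13, Edem2, Os9 and Sec24d), against 18.7%.

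Of the 32 genes, 14 rose and 7 fell in TH1 cells (against 29.1% and 27.7% of all genes tested), 14 rose and 7 fell in TH2 cells (against 29.9% and 29.3% of all genes tested), 18 rose and 2 fell in TH17 cells (against 25.6% and 22.2% of all genes tested) and 16 rose and 3 fell in Treg cells (against 32.9% and 26.9% of all genes tested) of the Odc table, by edgeR's quasi-likelihood test at an adjusted p below 0.05 over all 13839 genes tested. Among Dohh comparisons, 18 rose and 3 fell in TH1 cells (against 25.9% and 24.1% of all genes tested), 19 rose and 0 fell in TH2 cells (against 23.8% and 21.5% of all genes tested), 18 rose and 3 fell in TH17 cells (against 27% and 24.9% of all genes tested) and 23 rose and 1 fell in Treg cells (against 28.4% and 25% of all genes tested), over 13897 genes. With the replicate number as a block, 4 fell in Odc TH17 cells in place of 2, against 24.1% of all genes in that fit. In Dohh TH2 cells, where edgeR called none down, 0 of the 32 were lower at an unadjusted p below 0.05 and DESeq2 called 1 down. The share of all genes was not taken for these counts. The share that rose was 43.8% in Odc TH1 and in Odc TH2 cells, the lowest of the 8 comparisons, and 71.9% in Dohh Treg cells, the highest. The median log2 fold change of the 32 was 0.25, 0.23, 0.32 and 0.28 in Odc TH1, TH2, TH17 and Treg cells, where the median of all genes was 0.024, -0.0019, 0.048 and 0.073. In the Dohh table it was 0.62, 0.82, 0.68 and 0.82, against 0.011, 0.018, 0.013 and 0.025.

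Single libraries moved with these counts. WT replicate 4 of the Odc table was the highest of the 4 WT libraries in all 4 subsets for 11 of the 32 genes (34.4%), among them Hspa5, Sdf2l1, Creld2 and Pdia6, against 13.9% of all genes tested, and the lowest for 2, Eif2ak3 and Os9, against 9.97%. With it left out of every subset, 18, 15, 19 and 16 genes rose and 8, 7, 2 and 5 fell in TH1, TH2, TH17 and Treg cells, where 31%, 31.3%, 29.5% and 35.5% of all genes rose and 29.1%, 30.2%, 24.5% and 28.7% fell in the same fit. With it left out of Treg cells alone 5 fell there, against 28.1% of all genes. Without KO replicate 1 of every Odc subset, which for P4hb lay above all WT libraries in TH17 and Treg cells, 14, 15, 18 and 13 rose and 8, 7, 5 and 4 fell, against 30.7%, 30.5%, 27% and 32.2% and 29.8%, 30.3%, 23.2% and 26.7% of all genes. Without KO replicate 3, 12, 12, 18 and 13 rose and 7, 8, 2 and 3 fell, against 26.9%, 28.6%, 21.4% and 30.2% and 25.2%, 27.9%, 19% and 24.2%. In the Dohh table, with KO replicates 2 and 3 of every subset left out, the libraries in which the myeloid genes were highest in TH17 and Treg cells, 21, 23, 17 and 22 rose and 1, 0, 3 and 3 fell, against 25.5%, 21.6%, 24.2% and 25.1% and 26.7%, 20.3%, 24.2% and 25.9% of all genes, the lone KO library of each subset being taken to vary like the other groups. In Treg cells without KO replicate 2, 2 fell, against 23.2%. These alternatives were chosen after the data were seen.

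A change above 2-fold was less common in the Odc table. There 3 genes in TH1 (10.2% of all genes), 2 genes in TH2 (11.5% of all genes), 5 genes in TH17 (8.35% of all genes) and 7 genes in Treg (13.9% of all genes) rose by over 2-fold. Among Dohh comparisons, 11 in TH1 (14.8%), 13 in TH2 (14.3%), 11 in TH17 (17.3%) and 14 in Treg (17.5%) did. Falls of over 2-fold were fewer, 0, 1, 0 and 1 in the Odc (against 11.3, 13.6, 7.21 and 10.1% of all genes) and 0, 0, 2 and 1 in the Dohh comparisons (against 14.2, 11.6, 14.1 and 15.2%). In Odc TH1 and TH2 cells the rises, 3 and 2 of 32, were shares near that of all genes. The heat map of fold changes shows the 32 genes by role in the 8 comparisons.

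**Figure D1:**
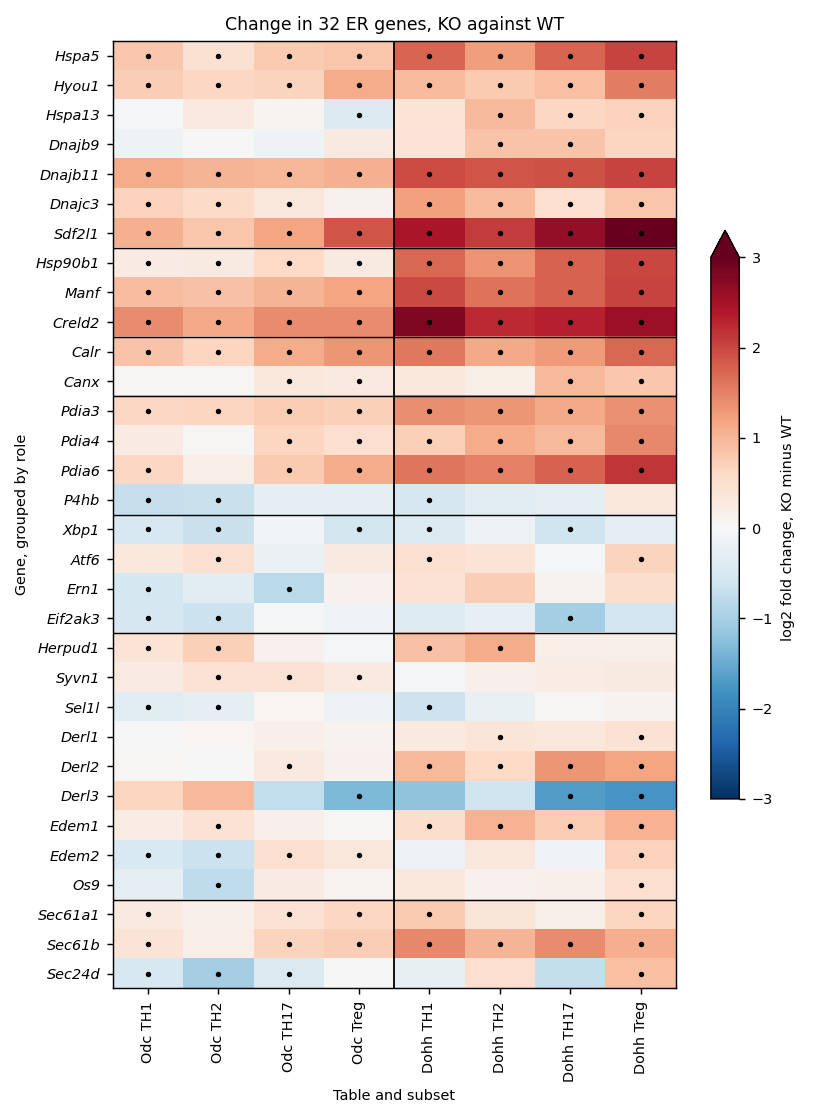
Log2 fold change (KO minus WT, edgeR) of the 32 genes in rows, grouped by role, in the 8 comparisons in columns, on the colour scale drawn beside it, with calls at an adjusted p below 0.05 marked. The 9 genes that rose in all 8 comparisons are chaperones, folding factors and 1 disulfide isomerase, while Xbp1, Eif2ak3 and P4hb are below 0 in most columns.

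BiP binds unfolded chains and also holds the 3 sensors inactive, and its gene Hspa5 rose in every comparison. Hspa5 stood at 489, 496, 464 and 624 CPM in the 4 Odc TH1 WT libraries and at 759.7, 916, 983 and 967 in TH1 KO. In TH2 cells Hspa5 stood at 755, 679.7, 692 and 758 CPM in Odc WT and 985, 1032 and 962 in Odc KO. In both subsets every KO library was above every WT library. In TH17 cells Hspa5 stood at 453, 422, 434 and 628 CPM in Odc WT and 807, 829, 884 and 826 in Odc KO. In Treg cells Hspa5 stood at 403, 421, 382 and 578 CPM in Odc WT and 961, 685, 859 and 681 in Odc KO. WT replicate 4 was the highest WT library in these 4 subsets, and it too lay below all KO libraries of its subset. The log2 fold changes were 0.81 ± 0.13, 0.46 ± 0.14, 0.79 ± 0.13 and 0.84 ± 0.13 in TH1, TH2, TH17 and Treg cells (SE; edgeR's quasi-likelihood test, adjusted p = 2.34e-05, 0.00706, 4.81e-05 and 7.8e-06).

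Hspa5 in the Dohh table stood at 282, 266 and 356 CPM in TH1 WT and 1092, 1008 and 929 in TH1 KO, and at 524, 551 and 549 in TH2 WT and 1255, 1286 and 1317 in TH2 KO. It stood at 202, 194 and 168 CPM in TH17 WT and 618, 756 and 521 in TH17 KO, and at 244, 232 and 221 in Treg WT and 838, 832 and 1161 in Treg KO. No KO library overlapped the WT libraries of its subset. The log2 fold changes were 1.74 ± 0.17, 1.25 ± 0.16, 1.75 ± 0.17 and 2.02 ± 0.17 (SE), or 3.35-fold, 2.37-fold, 3.37-fold and 4.06-fold, with adjusted p = 8.14e-08, 5.33e-06, 7.31e-08 and 6.8e-09 by edgeR. With any 1 library left out, Hspa5 passed in all 8 comparisons.

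Sdf2l1 encodes a partner of the DnaJ co-chaperone made from Dnajb11, and both genes rose in all 8 comparisons. In TH1 cells Sdf2l1 stood at 38.4, 41.3, 44.4 and 75.2 CPM in Odc WT and 78.5, 112, 117 and 110.3 in Odc KO. In TH2 cells Sdf2l1 stood at 55.9, 67.4, 62.4 and 78.1 CPM in Odc WT and 114, 122 and 113 in Odc KO. KO exceeded WT without overlap in both, with WT replicate 4 highest among the WT libraries. In TH17 cells Sdf2l1 stood at 34.7, 40.6, 39.0 and 73.1 CPM in Odc WT and 88.5, 102, 124 and 110.5 in Odc KO. In Treg cells Sdf2l1 stood at 16.9, 22.2, 16.5 and 55.5 CPM in Odc WT and 121, 82.4, 132 and 76.8 in Odc KO. Again no libraries overlapped. In the Dohh table WT and KO Sdf2l1 levels were 33.3, 34.8 and 32.1 and 198, 299 and 48.4 CPM in TH1 cells and 45.1, 46.6 and 36.2 and 186, 183 and 179 in TH2 cells. They were 16.1, 18.2 and 14.0 and 123, 112 and 66.3 CPM in TH17 cells and 9.41, 17.4 and 15.4 and 226, 189 and 180.2 in Treg cells, where KO replicate 3 of TH1 and TH17 cells was the lowest KO library. Sdf2l1 had the highest fold change of the 32 in Dohh Treg cells, 14.2-fold (log2 3.83 ± 0.42 SE, adjusted p = 3.86e-07, edgeR), and in Odc Treg cells, 3.72-fold (adjusted p = 8.06e-06). Its rise in Odc TH2 cells (adjusted p = 0.0241) did not pass without WT replicate 1, WT replicate 3, KO replicate 3 or KO replicate 4, where adjusted p reached 0.0687.

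Dnajb11 rose by up to 1.11 on the log2 scale in the Odc and by 1.89 to 2.03 in the Dohh comparisons. In Dohh TH17 cells, for example, its WT libraries stood at 34.2, 31.7 and 35.9 CPM and its KO libraries at 119, 121 and 139.8. All 3 KO libraries were more than 3 times the highest WT library there. Hyou1, a large HSP70 relative that exchanges nucleotide on BiP, rose by 0.62 to 1.12 and 0.78 to 1.54. Dnajc3, whose product hands clients to BiP and binds PERK, rose in 7 comparisons, with a log2 fold change of 0.14 ± 0.11 (SE, edgeR adjusted p = 0.264) in the other, Odc Treg. Dnajb9, a DnaJ co-chaperone that keeps IRE1 off, rose in Dohh TH2 and TH17 cells (log2 0.86 ± 0.30 and 0.86 ± 0.30, adjusted p = 0.0247 and 0.0205), with values from -0.15 to 0.27 in the Odc comparisons, where it did not pass. Without WT replicate 1 or KO replicate 2 in TH17, or any of WT replicates 1 and 2 and KO replicates 1 and 3 in TH2, Dnajb9 did not pass, adjusted p reaching 0.333 and 0.147. Hspa13, an atypical HSP70 of the ER membrane, fell in Odc Treg cells (WT 31.4, 29.3, 33.5 and 30.5 CPM, KO 27.1, 23.6, 19.5 and 21.6) and rose in Dohh TH2, TH17 and Treg cells (log2 0.98 ± 0.25, 0.61 ± 0.25 and 0.70 ± 0.25). Its calls in Dohh TH17 and Treg cells were lost when any of several single libraries was left out, 5 in TH17 and 3 in Treg, with adjusted p up to 0.206 and 0.104.

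All 3 other folding factors rose in all 8 comparisons. Hsp90b1 encodes the HSP90 paralogue of the ER, which folds integrins and Toll-like receptors among others. In TH1 cells Hsp90b1 stood at 818, 855, 711 and 923 CPM in Odc WT and 973, 903, 1074 and 987 in Odc KO. In TH2 cells Hsp90b1 stood at 1012, 886, 944 and 977 CPM in Odc WT and 1061, 1255 and 1121 in Odc KO. The TH1 groups overlapped, the lowest KO library lying below the highest WT library, and the TH2 groups did not. In TH17 cells Hsp90b1 stood at 572, 558, 553 and 724 CPM in Odc WT and 1012, 907, 901 and 843 in Odc KO. In Treg cells Hsp90b1 stood at 712, 644, 661 and 692 CPM in Odc WT and 997, 729, 880.1 and 686 in Odc KO. The TH17 groups did not overlap and the Treg groups did. The log2 fold changes were 0.25 ± 0.11, 0.26 ± 0.11, 0.61 ± 0.11 and 0.28 ± 0.11 (SE, edgeR adjusted p = 0.0435, 0.048, 6.7e-05 and 0.0238). The calls in TH1, TH2 and Treg cells were not stable: with 1 library left out in turn Hsp90b1 passed in 2 of 8 fits in TH1, 1 of 7 in TH2 and 4 of 8 in Treg cells, with adjusted p up to 0.2, 0.209 and 0.154. The fits that passed left out WT replicate 4 or KO replicate 2 in TH1, KO replicate 2 in TH2, and WT replicate 1 or 4 or KO replicate 2 or 4 in Treg cells.

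Hsp90b1 differed more in the Dohh table, at 295, 273 and 398 CPM in TH1 WT and 1169, 1347 and 657 in KO, and 484, 502 and 537 in TH2 WT and 1209.5, 1170.3 and 1489 in KO. It stood at 199.6, 202 and 211 CPM in TH17 WT and 549, 631 and 895 in KO, and at 251, 234 and 218 in Treg WT and 850.3, 768 and 1211 in KO. No groups overlapped, and the log2 fold changes were 1.72 ± 0.24, 1.34 ± 0.23, 1.76 ± 0.24 and 2.01 ± 0.24 (SE, edgeR adjusted p = 7.58e-06, 0.000111, 5.26e-06 and 7.87e-07).

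Creld2, a secreted and ER-resident protein with disulfide isomerase activity, and Manf, a small ER factor that binds BiP, had among the highest fold changes. Creld2 WT and KO libraries stood at 24.7, 25.9, 24.8 and 38.3 and 51.2, 77.9, 83.9 and 89.9 CPM in Odc TH1 cells and at 35.3, 42.4, 38.8 and 48.3 and 94.9, 95.6 and 79.6 in Odc TH2 cells. They stood at 20.6, 25.2, 26.1 and 43.5 and 66.3, 79.1, 96.0 and 67.4 CPM in Odc TH17 cells and at 25.3, 25.8, 25.8 and 44.2 and 92.0, 69.6, 97.5 and 65.6 in Odc Treg cells. WT replicate 4 was the highest WT library each time and KO replicate 1 the lowest KO library in TH1 and TH17 cells, and no groups overlapped. In the Dohh table Creld2 stood at 19.8, 20.5 and 20.6 CPM in TH1 WT and 149, 221 and 59.2 in TH1 KO, and at 33.3, 34.9 and 26.5 in TH2 WT and 114, 151 and 185 in TH2 KO. It stood at 20.3, 18.5 and 14.6 CPM in TH17 WT and 78.7, 69.0 and 124 in TH17 KO, and at 19.8, 20.3 and 21.6 in Treg WT and 106, 103 and 154 in Treg KO. The log2 fold changes of Creld2 were 1.41 ± 0.22, 1.13 ± 0.23, 1.42 ± 0.22 and 1.42 ± 0.22 in the Odc and 2.81 ± 0.33, 2.25 ± 0.32, 2.34 ± 0.33 and 2.56 ± 0.33 in the Dohh comparisons (SE, TH1, TH2, TH17 and Treg in turn), and adjusted p by edgeR was at most 0.000146. Creld2 passed with any 1 library left out. Manf rose by 0.88 to 1.18 and 1.63 to 2.03 on the log2 scale, from 64.1 to 76.7 CPM in Dohh Treg WT to 244 to 339 in KO.

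**Figure D2:**
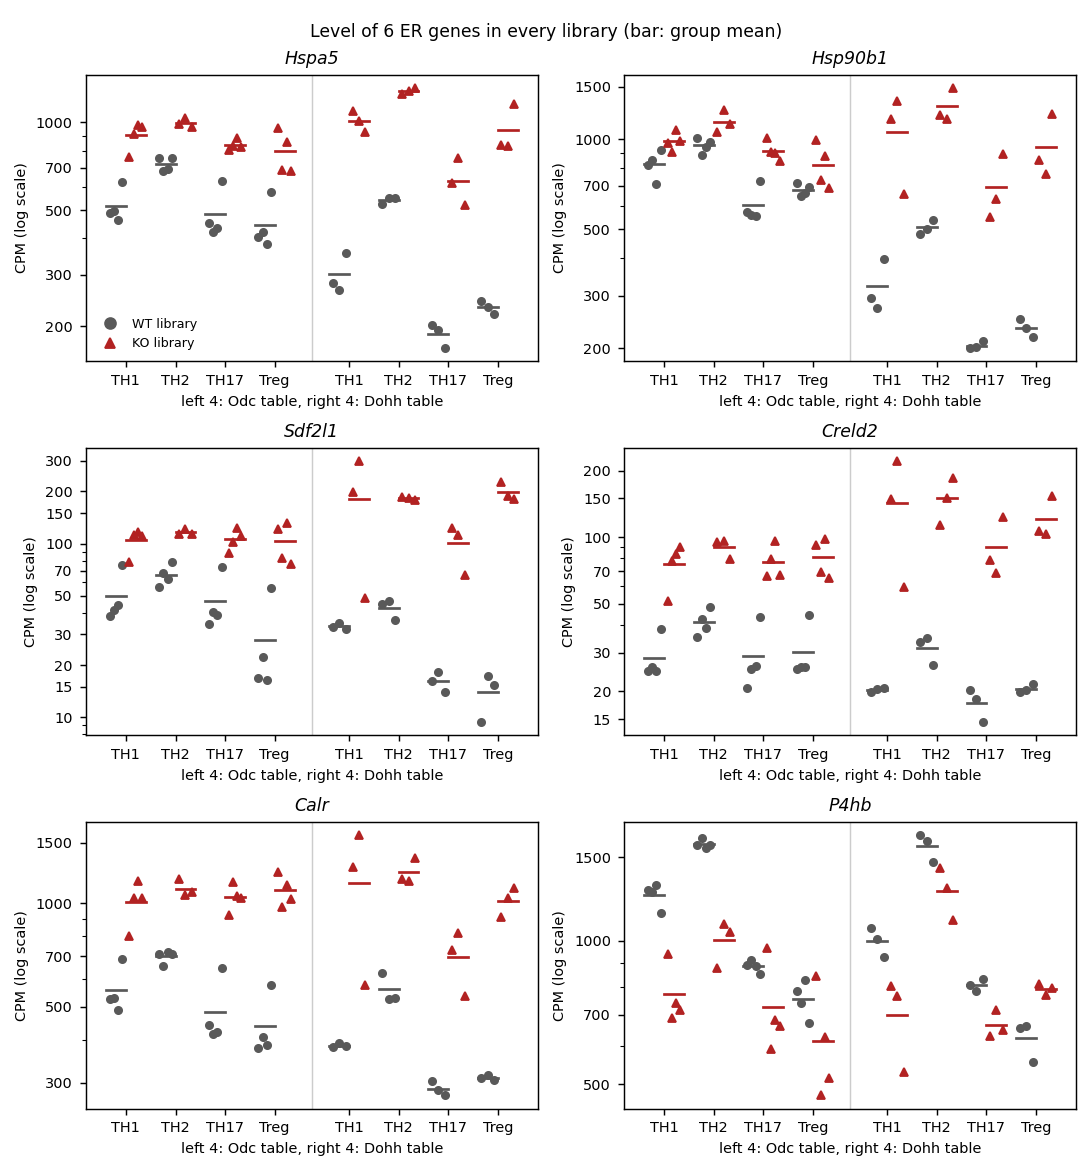
CPM on a log axis of Hspa5, Hsp90b1, Sdf2l1, Creld2, Calr and P4hb in each library (points, with the group mean as a line), by subset and table, WT and KO side by side. The KO points of the first 5 genes lie above the WT points of their subset except where Hsp90b1 overlaps in Odc TH1 and Treg cells, and those of P4hb lie below WT in TH1 and TH2 cells of the Odc table.

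The 2 lectin chaperones, which bind glycoproteins that still carry a glucose, differed from each other. Calr, for the soluble calreticulin, rose in all 8 comparisons, and Canx, for the membrane-bound calnexin, rose in TH17 and Treg cells of both tables. Calr stood at 526, 530.4, 489.5 and 686 CPM in Odc TH1 WT and 803, 1036, 1162 and 1037 in KO, and at 713, 656, 719.8 and 712 in TH2 WT and 1178, 1055 and 1075 in KO. It stood at 443, 417, 422 and 646 CPM in Odc TH17 WT and 921, 1154, 1049 and 1033 in KO, and at 379, 407, 386 and 578 in Treg WT and 1235, 973, 1131 and 1028 in KO. These groups did not overlap. In Dohh TH1 cells WT stood at 381, 391 and 383 and KO at 1275, 1582 and 576 CPM, and in TH2 cells WT at 627, 525 and 529.9 and KO at 1172, 1161 and 1352. In Dohh TH17 cells WT stood at 303, 285 and 275 and KO at 728, 821 and 537 CPM, and in Treg cells WT at 309, 315 and 305 and KO at 911, 1032 and 1103. KO replicate 3 was the lowest KO library in TH1 and TH17 cells, still above all WT libraries. The log2 fold changes of Calr were 0.86 ± 0.14, 0.65 ± 0.15, 1.11 ± 0.14 and 1.32 ± 0.14 and 1.57 ± 0.24, 1.13 ± 0.24, 1.27 ± 0.24 and 1.71 ± 0.24 (SE, edgeR, adjusted p at most 0.000617). Canx rose by 0.31 ± 0.10 and 0.29 ± 0.10 in Odc TH17 and Treg cells, where its WT and KO libraries overlapped, and by 0.98 ± 0.16 and 0.81 ± 0.16 in Dohh TH17 and Treg cells, where they did not. In Odc cells the TH17 call did not pass without KO replicate 2 (adjusted p = 0.059), nor the Treg call without WT replicate 3 or KO replicate 4 (up to 0.0634). In TH1 and TH2 cells its log2 fold changes were 0.041 ± 0.10 and 0.035 ± 0.11 in the Odc and 0.33 ± 0.16 and 0.17 ± 0.16 in the Dohh table and did not pass (adjusted p = 0.748, 0.799, 0.0994 and 0.407). The effect on Canx differed between subsets in the Dohh table (edgeR F test of the interaction, adjusted p = 0.035), and adjusted p was 0.206 in the Odc table.

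Among the 4 disulfide isomerases, Pdia3, Pdia4 and Pdia6 rose and P4hb fell in the comparisons in which they passed. Pdia3 works with the lectin chaperones on glycoproteins, Pdia4 and Pdia6 bind the BiP complex, and Pdia6 also damps IRE1. Pdia3 rose by 0.62 to 0.75 on the log2 scale in the Odc and 1.13 to 1.39 in the Dohh comparisons, from 236 to 321 CPM in Dohh TH1 WT to 479 to 870.5 in KO. Pdia6 rose in 7 comparisons, by up to 1.10 ± 0.15 in Odc Treg (WT 147, 155, 145 and 214 CPM, KO 430.0, 301, 387 and 304) and 2.16 ± 0.21 in Dohh Treg cells (WT 108, 110.0 and 103, KO 451, 406 and 570.2). In Odc TH2 cells its groups overlapped (WT 325, 318, 319 and 408, KO 379, 439 and 366 CPM, edgeR adjusted p = 0.287). That WT group held 1 library, replicate 4, that was above all but 1 KO library. Pdia4 rose by 0.63 ± 0.11 and 0.51 ± 0.11 in Odc TH17 and Treg cells and by 0.71 to 1.44 in the 4 Dohh comparisons, with 0.24 ± 0.11 (adjusted p = 0.0576) in Odc TH1 and 0.035 ± 0.11 (0.807) in Odc TH2 cells. Without KO replicate 1 Pdia4 did not pass in Dohh TH1 cells (adjusted p = 0.0506), and without WT replicate 4 it passed in Odc TH1 cells (0.0461). The effect differed between subsets in the Odc table for both Pdia4 and Pdia6 (interaction, adjusted p = 0.0125 and 0.0166).

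P4hb encodes protein disulfide isomerase itself, which also serves as a subunit of the collagen prolyl hydroxylase and of the microsomal triglyceride transfer protein. In TH1 cells P4hb stood at 1278, 1265, 1311 and 1147 CPM in Odc WT and 939, 689.7, 739.7 and 717 in Odc KO. In TH2 cells P4hb stood at 1593, 1647, 1566 and 1592 CPM in Odc WT and 878, 1084 and 1044 in Odc KO. Every KO library lay below every WT library in both. In TH17 cells P4hb stood at 889, 913, 885 and 851 CPM in Odc WT and 965, 592, 682 and 662 in Odc KO. In Treg cells P4hb stood at 786, 741, 827 and 671 CPM in Odc WT and 844, 473, 627 and 514 in Odc KO. Here KO replicate 1 was above all WT libraries and the other 3 KO libraries below all of them. P4hb fell by 0.70 ± 0.14 in TH1 and 0.67 ± 0.15 in TH2 cells on the log2 scale (SE, edgeR adjusted p = 0.000174 and 0.000518), with -0.29 ± 0.14 (0.0925) in TH17 and -0.30 ± 0.14 (0.0666) in Treg cells. Without KO replicate 1 it passed in TH17 and Treg cells too (adjusted p down to 0.00752 and 0.00226), and in Treg cells also without WT replicate 4.

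P4hb in the Dohh table stood at 1065, 1007 and 923 CPM in TH1 WT and 803, 765 and 530.5 in KO, and at 1672, 1618 and 1462 in TH2 WT and 1424, 1291 and 1105 in KO. It stood at 809, 786 and 833 CPM in TH17 WT and 632, 716 and 649.8 in KO, and at 656, 661 and 556 in Treg WT and 810.0, 771 and 798 in KO. KO was below WT in the first 3 subsets and above it in Treg cells, without overlap. It fell in TH1 cells (log2 -0.51 ± 0.16 SE, edgeR adjusted p = 0.00919), a call that did not pass without KO replicate 3 (0.058), and the others did not pass (adjusted p = 0.102, 0.134 and 0.0654). The effect on P4hb differed between subsets in the Dohh table (interaction, adjusted p = 0.0324).

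Of the 4 sensors and transcription factors, Xbp1, Ern1 (IRE1) and Eif2ak3 (PERK) fell in some comparisons and rose in none, and Atf6 rose in 3. The fallers numbered 3, 2, 1 and 1 in Odc TH1, TH2, TH17 and Treg cells, where 27.7%, 29.3%, 22.2% and 26.9% of all genes fell, and 1, 0, 2 and 0 in the Dohh subsets, where 24.1%, 21.5%, 24.9% and 25% did. Over so few genes these counts were near the background in most comparisons, and the genes are described one by one. In TH1 cells Xbp1 stood at 314, 308, 359 and 283 CPM in Odc WT and 293, 177, 215 and 219.6 in Odc KO. In TH2 cells Xbp1 stood at 462, 398, 451 and 379 CPM in Odc WT and 229, 299.9 and 264 in Odc KO. KO replicate 1 of TH1 cells lay within the WT libraries, and the TH2 groups did not overlap. In TH17 cells Xbp1 stood at 194, 203, 213 and 224 CPM in Odc WT and 190.4, 192, 194 and 212 in KO, which overlapped, and in Treg cells at 495, 484, 514 and 454 in WT and 451, 271, 299 and 301 in KO, which did not. Xbp1 fell in Odc TH1, TH2 and Treg cells (log2 -0.48 ± 0.13, -0.68 ± 0.15 and -0.56 ± 0.13 SE, edgeR adjusted p = 0.00326, 0.000298 and 0.00077). In the Dohh table it stood at 293, 287 and 261 CPM in TH1 WT and 228, 175 and 219 in KO, and at 234, 267 and 242 in TH17 WT and 151, 189 and 153 in KO, falling in both (log2 -0.43 ± 0.15 and -0.59 ± 0.15, adjusted p = 0.021 and 0.00285). In TH2 and Treg cells of that table adjusted p was 0.384 and 0.12. The call in Dohh TH1 did not pass without WT replicate 1, WT replicate 2 or KO replicate 2 (up to 0.0998), and Xbp1 passed in Dohh Treg cells without KO replicate 2 (0.0368). Counts per gene do not separate spliced from unspliced Xbp1 mRNA, so IRE1 activity was not measured.

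Ern1 stood at 62.7, 61.9, 50.4 and 60.0 CPM in Odc TH1 WT and 43.0, 36.5, 51.9 and 31.2 in KO, and at 41.6, 34.5, 44.5 and 35.4 in TH17 WT and 26.8, 21.4, 22.0 and 18.3 in KO. It fell in both (log2 -0.53 ± 0.14 and -0.82 ± 0.15 SE, edgeR adjusted p = 0.00271 and 9.36e-05), though 1 TH1 KO library lay above the lowest WT library. Ern1 in the Dohh table did not pass in any subset, its KO libraries in TH1 running from 17.2 to 77.9 CPM around WT libraries of 31.0 to 46.8, and without KO replicate 2 it passed there (adjusted p = 0.00223). Eif2ak3 fell in Odc TH1 and TH2 cells (log2 -0.51 ± 0.17 and -0.65 ± 0.19, adjusted p = 0.0104 and 0.004). It fell also in Dohh TH17 cells, from 65.8, 67.6 and 71.4 CPM in WT to 39.1, 38.1 and 22.7 in KO (log2 -1.03 ± 0.31, adjusted p = 0.00809), a call that did not pass without KO replicate 3 (0.0518). 8.05% of its exon bases lie opposite another gene model, as do 10.3% of those of Hsp90b1, 8.85% of Manf and 8.15% of Sec61a1, and 5.38% of Hsp90b1 are shared with gene models on its own strand. Whether the authors counted by strand is not given in the sources used here, so these counts are uncertain to that extent. Atf6 rose in Odc TH2 (log2 0.48 ± 0.15, adjusted p = 0.00929), Dohh TH1 (0.47 ± 0.17, 0.0272) and Dohh Treg cells (0.68 ± 0.18, 0.0028). Its groups overlapped in Dohh TH1, where WT replicate 2 or 3 or KO replicate 1 or 3 left out ended the call (adjusted p up to 0.125), as did WT replicate 2 in Odc TH2 (0.05). The effect on Ern1 and on Atf6 differed between subsets in the Odc table (interaction, adjusted p = 0.00649 and 0.0494).

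Of the 9 ER degradation genes, 1, 3, 3 and 2 rose and 2, 3, 0 and 1 fell in Odc TH1, TH2, TH17 and Treg cells, where 29.1%, 29.9%, 25.6% and 32.9% of all genes rose and 27.7%, 29.3%, 22.2% and 26.9% fell. Among Dohh comparisons 3, 4, 2 and 5 rose, against 25.9%, 23.8%, 27% and 28.4% of all genes, and 1, 0, 1 and 1 fell, against 24.1%, 21.5%, 24.9% and 25%. For so few genes the risers in the Odc table, and in Dohh TH1 and TH17 cells, were near or below the background. Herpud1, which organises the degradation complex at the ER membrane, rose in TH1 and TH2 cells of both tables. In Odc cells it stood at 59.1, 51.6, 63.7 and 65.3 CPM in TH1 WT and 86.4, 74.2, 79.5 and 78.1 in KO, and at 60.0, 58.7, 60.0 and 66.5 in TH2 WT and 99.7, 107 and 94.2 in KO. It stood at 61.7, 65.6, 67.0 and 88.3 CPM in Odc TH17 WT and 90.0, 70.6, 74.7 and 76.0 in KO, and at 74.4, 75.1, 71.7 and 96.4 in Treg WT and 87.1, 68.4, 73.0 and 77.9 in KO. The groups were apart in TH1 and TH2 cells and overlapped in TH17 and Treg cells. In Dohh cells it stood at 68.0, 70.8 and 53.3 CPM in TH1 WT and 142, 106 and 108 in KO, and at 57.9, 57.6 and 55.8 in TH2 WT and 125, 117 and 132 in KO. It stood at 69.6, 75.4 and 63.6 CPM in Dohh TH17 WT and 71.1, 82.0 and 85.8 in KO, and at 82.4, 82.2 and 85.2 in Treg WT and 97.5, 96.3 and 90.5 in KO. The log2 fold changes in TH1, TH2, TH17 and Treg cells were 0.41 ± 0.11, 0.71 ± 0.12, 0.14 ± 0.11 and -0.051 ± 0.11 in the Odc and 0.89 ± 0.14, 1.12 ± 0.14, 0.19 ± 0.14 and 0.19 ± 0.14 in the Dohh table (SE, edgeR adjusted p = 0.00297, 1.93e-05, 0.304 and 0.702, then 2.41e-05, 2.02e-06, 0.237 and 0.253). Herpud1 was the only one of the 32 whose effect differed between subsets in both tables (interaction, adjusted p = 0.00301 and 0.00137), and the subsets in which it passed as risen were the same. The absence of a call elsewhere was less clear. In Odc TH17 cells it passed when WT replicate 4, at 88.3 CPM, was left out, and in Dohh Treg cells every KO library lay above every WT library.

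Edem2, an ER mannosidase-like protein that marks glycoproteins for degradation, changed in opposite directions in the Odc table. It stood at 163, 175, 171 and 168 CPM in TH1 WT and 159.6, 90.5, 134 and 106 in KO, and at 110.2, 114, 112 and 114 in TH2 WT and 59.1, 83.7 and 73.2 in KO, lower in KO without overlap. It stood at 99.8, 95.2, 93.7 and 111 CPM in TH17 WT and 142, 153, 128 and 135 in KO, above WT without overlap, and at 97.8, 85.6, 106 and 96.1 in Treg WT and 155, 100.5, 124 and 107 in KO, where the groups overlapped. Edem2 fell in TH1 and TH2 cells (log2 -0.47 ± 0.13 and -0.65 ± 0.15 SE, edgeR adjusted p = 0.00431 and 0.000557) and rose in TH17 and Treg cells (0.48 ± 0.13 and 0.34 ± 0.13, 0.00477 and 0.0329). Its interaction with subset had the lowest adjusted p of the 32 in that table, 5.71e-05. The Treg call did not pass without WT replicate 1 or 2 or KO replicate 1 or 3 (adjusted p up to 0.209). Among Dohh cells it rose in Treg cells alone among the 4 tests (log2 0.68 ± 0.23, adjusted p = 0.0168, up to 0.0751 without WT replicate 1 or 3 or KO replicate 1), and adjusted p of its interaction there was 0.147. Os9, a lectin that brings clients to the degradation complex, fell in Odc TH2 cells from 235, 223, 235 and 194 CPM in WT to 117, 142 and 133 in KO (log2 -0.77 ± 0.15, adjusted p = 8.95e-05) and rose in Dohh Treg cells (0.51 ± 0.16, 0.00867, up to 0.0721 without WT replicate 1 or 3). In Odc TH1 cells its log2 fold change was -0.30 ± 0.13 (adjusted p = 0.0571), which passed under 8 of 17 alternatives, among them DESeq2, the replicate block and the fits without WT replicate 4 or KO replicate 1 (adjusted p from 0.0053 to 0.212 over all 17). The effect on Os9 differed between subsets in the Odc table (interaction, adjusted p = 0.00102).

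The degradation ligase gene Syvn1 rose in Odc TH2, TH17 and Treg cells (log2 0.45 ± 0.12, 0.44 ± 0.11 and 0.29 ± 0.11 SE, edgeR adjusted p = 0.0022, 0.002 and 0.0239) and passed in no Dohh comparison, where its values ran from -0.042 to 0.28. Sel1l, its adaptor, fell in TH1 cells of both tables (-0.34 ± 0.096 and -0.61 ± 0.15, adjusted p = 0.00434 and 0.00226) and in Odc TH2 cells (-0.29 ± 0.10, 0.017). The call for Syvn1 in Odc Treg cells did not pass without WT replicate 1 or 2 or KO replicate 1 (adjusted p up to 0.107). Of the derlins, which form the channel back to the cytosol, Derl2 rose in all 4 Dohh comparisons (0.59 to 1.32 on the log2 scale, from 23.4 to 28.0 CPM in TH17 WT to 48.3 to 85.5 in KO) and in Odc TH17 cells (0.29 ± 0.077, adjusted p = 0.00343). In Dohh TH2 its call did not pass without WT replicate 1, 2 or 3 or KO replicate 1 or 3 (adjusted p up to 0.106). Derl1 rose in Dohh TH2 and Treg cells (0.37 ± 0.14 and 0.43 ± 0.14, adjusted p = 0.0386 and 0.0139), calls lost in 5 and 4 of 6 fits that each left out 1 library. Derl3 fell in Dohh TH17 cells from 9.85, 9.37 and 10.5 CPM in WT to 2.74, 2.57 and 4.08 in KO and in Dohh Treg cells from 2.93, 4.50 and 3.15 to 1.55, 1.11 and 0.412, without overlap (log2 -1.67 ± 0.43 and -1.77 ± 0.47, adjusted p = 0.00284 and 0.00335). It fell also in Odc Treg cells (-1.35 ± 0.44, 0.0101), where the groups overlapped and adjusted p was 0.0565 without WT replicate 3. Edem1, which like Edem2 trims mannose from misfolded glycoproteins, rose in Odc TH2 cells (0.44 ± 0.13) and in all 4 Dohh comparisons (0.53 to 1.04). Without WT replicate 4 of the subset, Syvn1 and Edem1 passed in Odc TH1, Herpud1 in Odc TH17 and Sel1l in Odc Treg cells (adjusted p = 0.0283, 0.0427, 0.0422 and 0.0423). Derl1 passed in Dohh TH1 cells without KO replicate 3, Derl3 there without KO replicate 2 and Os9 there without KO replicate 1 (0.0124, 0.0311 and 0.0243).

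Sec61a1 and Sec61b encode the pore and a small subunit of the channel through which proteins enter the ER, and Sec24d a cargo adaptor of the COPII coat that carries proteins out. Sec61b rose in 7 comparisons, from 109.6, 111 and 110.5 CPM in WT to 282, 438 and 177 in KO in Dohh TH1 cells (log2 1.44 ± 0.26 SE, edgeR adjusted p = 0.000133). In Odc TH1 cells its rise (0.38 ± 0.14, 0.027) did not pass without WT replicate 1 or 2 or KO replicate 3 (up to 0.088), and in Odc TH2 cells adjusted p was 0.283. Sec61a1 rose in Odc TH1, TH17 and Treg cells and in Dohh TH1 and Treg cells, by 0.29 ± 0.099 to 0.80 ± 0.20 on the log2 scale, and its call in Dohh Treg cells did not pass without WT replicate 2 (0.0534). Sec24d fell in Odc TH2 cells from 39.9, 35.1, 33.7 and 32.4 CPM in WT to 13.8, 19.9 and 18.0 in KO, the only fall above 2-fold in that comparison (log2 -1.03 ± 0.15, adjusted p = 4.82e-06). It fell also in Odc TH1 and TH17 cells (-0.48 ± 0.14 and -0.44 ± 0.14, adjusted p = 0.00467 and 0.0113) and rose in Dohh Treg cells, from 22.7, 13.6 and 24.2 CPM to 33.9, 44.2 and 36.2 (0.91 ± 0.36, 0.0361). That rise passed in only 1 of 6 fits that each left out 1 library (adjusted p up to 0.181). The interaction with subset gave adjusted p = 0.0034 for Sec24d in the Odc table.

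Over the 32 genes, the KO effect differed between subsets for 11 in the Odc table, against 34.8% of all genes tested, and for 3 in the Dohh table, against 17.9%. The share was near that of all genes in the Odc table and below it in the Dohh table. This fit takes libraries of different subsets as independent, though those with the same replicate number deviated together in 24 of 24 Odc WT and 20 of 21 Odc KO pairs (r over 0.1), and with the replicate number as a block the counts were 16, against 43.2% of all genes, and 3, against 19.2%. Besides those named above, the Odc genes were Hspa13, Dnajc3 and Derl3 (adjusted p = 0.0156, 0.0214 and 0.0154). Of the genes that rose in all 8 comparisons none passed this test in either table, the lowest adjusted p being 0.0515, which does not show that their effects were alike. The Dohh count rested on single libraries: it was 5, 7 and 9 without TH1 KO replicate 1, 2 and 3, where the share of all genes was 19.1%, 21.4% and 30.3%, and 1, against 13.3% to 15.4% of all genes, without any of TH1 WT replicate 1, TH2 WT replicate 2, TH2 KO replicate 1, TH17 WT replicate 1, 2 or 3 and Treg WT replicate 2 or 3.

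The effect on many of the chaperone genes was larger in the Dohh than in the Odc comparison. The difference between the 2 effects, each taken against the WT libraries of its own table, was tested in 1 edgeR fit over all 55 libraries. The Dohh effect was higher for 15 of the 32 genes in TH1 (9.6% of all 14850 genes tested), 12 in TH2 (7.46%), 11 in TH17 (11.2%) and 16 in Treg cells (12.7%). It was lower for 1 gene, Eif2ak3 in TH17 cells (-0.91 ± 0.34, adjusted p = 0.0471), against 8.94%, 8.22%, 10.2% and 13.5% of all genes in the 4 subsets. That call passed in 4 of 14 fits with 1 library left out (adjusted p up to 0.172, without Dohh KO replicate 3). Hsp90b1 differed by 1.49 ± 0.24, 1.07 ± 0.25, 1.20 ± 0.24 and 1.77 ± 0.24 on the log2 scale in TH1, TH2, TH17 and Treg cells (SE, adjusted p = 1.46e-05, 0.00212, 0.000239 and 2.22e-07). Hspa5 differed by 0.96 ± 0.20, 0.77 ± 0.21, 1.02 ± 0.20 and 1.22 ± 0.20 (adjusted p = 0.000702, 0.00838, 0.000251 and 9.31e-06), and Pdia6 and Dnajb11 also passed in all 4 subsets, Dnajb11 in TH2 not without Dohh KO replicate 3 (adjusted p = 0.0742). The difference for Sdf2l1 was 1.96 ± 0.50 in Treg cells (adjusted p = 0.00244), the largest of the 32 there. Hyou1 passed in no subset (differences 0.22 ± 0.26, 0.15 ± 0.27, 0.29 ± 0.26 and 0.45 ± 0.26). Without TH2 Dohh KO replicate 3 the TH2 count was 7, and the share of all genes was not taken in that fit. The 95% interval of the Hyou1 difference in Treg cells ran from -0.071 to 0.97.

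The levels on both sides of the contrast differed between the tables, which were scaled separately. Of the genes with a higher Dohh effect, the WT mean was lower in the Dohh table than in the Odc table for 13, 10, 10 and 16 in TH1, TH2, TH17 and Treg cells, and the KO mean was higher for 14, 12, 3 and 13. In TH17 cells Hspa5 averaged 484 ± 96.5 CPM (SD, n = 4) in Odc WT and 188 ± 17.8 (n = 3) in Dohh WT, but 836 ± 33.1 in Odc KO and 632 ± 118 in Dohh KO. The larger Dohh effect there thus went with a lower WT level and not with a higher KO level. Over all 32 genes the WT mean was lower in the Dohh table for 27, 24, 26 and 29. The share over all genes was not taken, so this is not shown to be particular to these genes. Whether the tables were made in 1 sequencing batch is not given in the sources used here, and the gene deleted and the table cannot be told apart. As a description, the Odc and Dohh log2 fold changes of the 32 genes, which share no library, correlated with Pearson's r = 0.789, 0.619, 0.836 and 0.896 in TH1, TH2, TH17 and Treg cells (across genes, n = 32, and genes are not independent replicates).

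**Figure D3:**
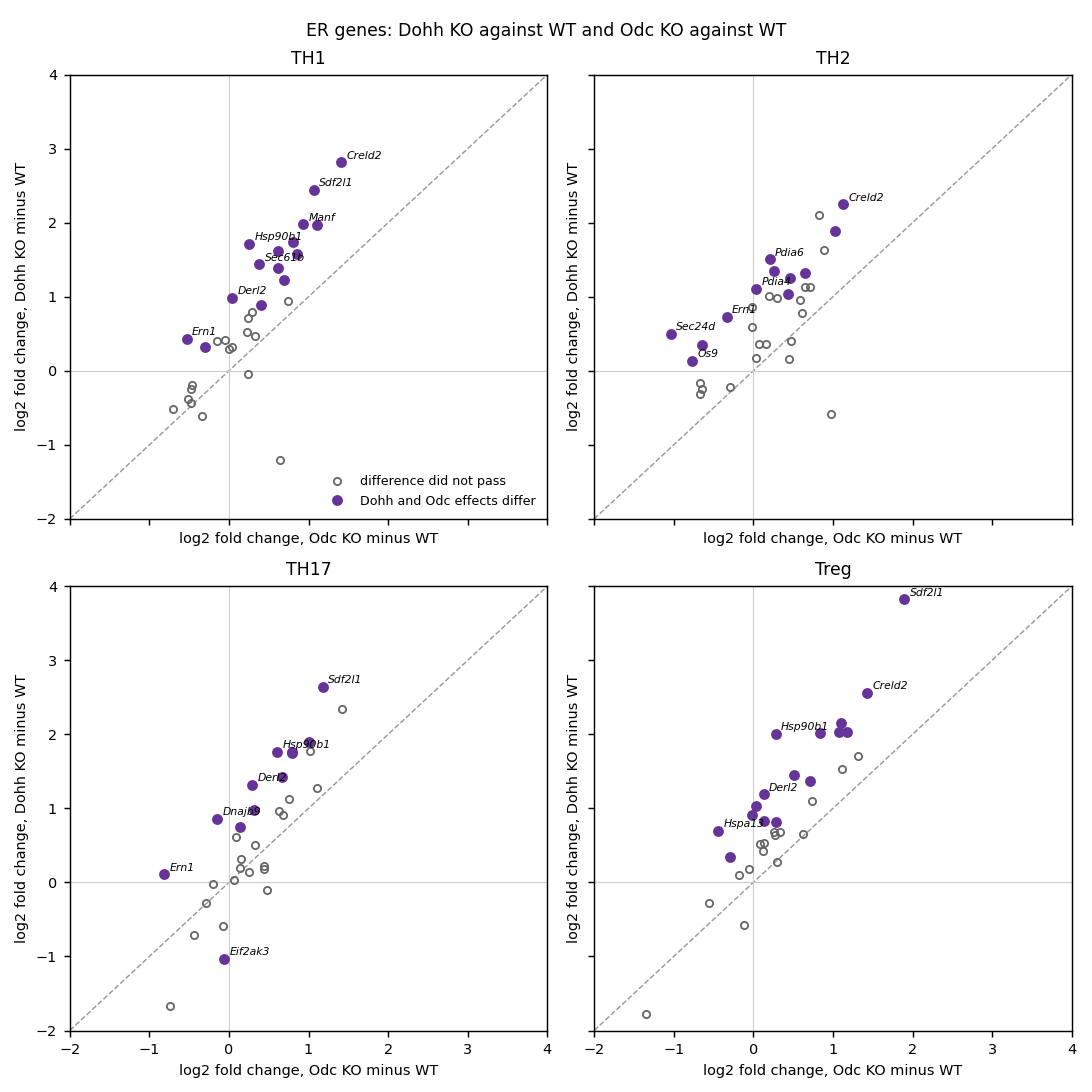
Log2 fold change (KO minus WT, edgeR) in the Dohh comparison (vertical axis) against that in the Odc comparison (horizontal axis), 1 panel per subset and 1 point per gene, with the diagonal drawn and genes far from it named. Most points lie above the diagonal, the Dohh effect being higher at an adjusted p below 0.05 for 11 to 16 of the 32 genes in each panel.

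Among WT cells the folding genes were most often highest in TH2. The WT subsets differed for 27 of the 32 genes in the Odc table (71.1% of all genes tested) and 19 in the Dohh table (40.1%), shares near or above those of all genes. TH2 was higher than the mean of the other WT subsets for 15 genes in the Odc table (22.7% of all genes) and 17 in the Dohh table (13.1%), and Treg was lower for 15 (24%) and 8 (11.1%). TH2 was lower for 7 (20.2%) and 1 (10.3%), and in the Odc table these took in Pdia3, Dnajc3, Dnajb9 and Hspa13. TH1 was higher for 7 (18.5%) and 4 (11%) and lower for 2 (17.7%) and 1 (9.06%) in the Odc and Dohh tables, TH17 higher for 5 (22.7%) and 1 (9.95%) and lower for 8 (18.9%) and 6 (7.94%), and Treg higher for 7 (24.2%) and 1 (11.8%). The 13 genes higher in TH2 in both tables were Hspa5, Hyou1, Sdf2l1, Hsp90b1, Creld2, Calr, Canx, Pdia4, Pdia6, P4hb, Xbp1, Os9 and Sec61a1. Of these, Sdf2l1, Creld2, Pdia4, Xbp1, Os9 and Sec61a1 lost the call in at least 1 table when single WT libraries were left out (adjusted p up to 0.286, for Xbp1 without Dohh TH2 replicate 1), and the other 7 kept it. P4hb averaged 1599 ± 33.9 CPM in Odc TH2 WT cells and 1250.3 ± 71.6, 885 ± 25.5 and 756 ± 66.7 in TH1, TH17 and Treg (SD, n = 4), a log2 difference of 0.76 ± 0.11 from the mean of the others (SE, edgeR adjusted p = 1.93e-06). In Dohh WT cells it averaged 1584 ± 109 in TH2 and 998 ± 71.7, 809 ± 23.4 and 624 ± 59.4 in the others (n = 3, log2 0.99 ± 0.12, adjusted p = 1.85e-06). The order of its levels, TH2, TH1, TH17 and Treg, was the same in both tables. Hspa5 in TH2 was 0.58 ± 0.11 above the others in the Odc and 1.20 ± 0.13 in the Dohh table (adjusted p = 5.31e-05 and 2.44e-07). Ern1 was highest in TH1 cells (1.26 ± 0.11 and 1.02 ± 0.24) together with Edem1 and Edem2, Derl3 in TH17 cells (1.51 ± 0.32 and 2.35 ± 0.32), and Herpud1 in Treg cells (0.32 ± 0.089 and 0.39 ± 0.11), all past the test in both tables. Without Dohh TH1 WT replicate 1, Ern1 and Edem2 did not pass there (adjusted p = 0.0727 for Ern1, up to 0.128 for Edem2, which failed also without replicate 2), nor Herpud1 in Odc cells without Treg WT replicate 4 (0.0591). Xbp1, Hsp90b1 and Canx were lower in TH17 than in the other WT subsets in both tables, where without Dohh TH17 WT replicate 1 neither Xbp1 nor Hsp90b1 passed (adjusted p = 0.118 and 0.0629), nor Xbp1 without replicate 3 or Hsp90b1 without replicate 2. Per kilobase of exon, the mean WT level was 392 CPM for P4hb in the Odc and 351 in the Dohh table, the highest of the 32, against 189.8 and 78.6 for Hsp90b1, 128 and 74.7 for Hspa5 and 1.51 and 2.05 for Derl3.

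**Figure D4:**
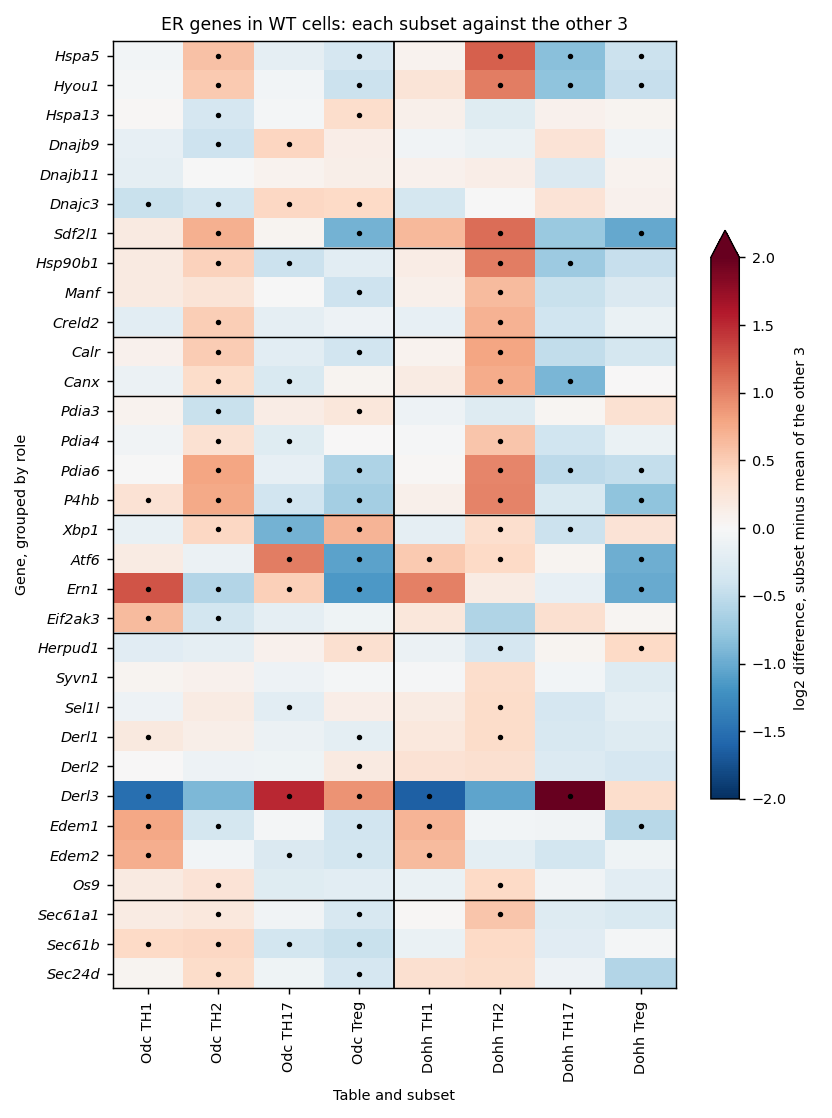
Log2 difference of each WT subset from the mean of the other 3 WT subsets for the 32 genes (rows, by role), in the Odc and the Dohh table, on the colour scale drawn beside it, with calls at an adjusted p below 0.05 marked. The TH2 columns are above 0 for most chaperone genes in both tables and the Treg columns below 0 for Hspa5, Hyou1, Sdf2l1, Pdia6 and P4hb.

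Read against the promoter windows printed above, the genes with an ERSE or ERSE-II and those without had medians of opposite sign in the Odc TH1 and TH2 comparisons. Of the 11 genes with a match, 8 rose and 0 fell in TH1 (median log2 fold change 0.64), and of the 15 with a window but no match 3 rose and 7 fell (-0.30), where 29.1% of all genes rose and 27.7% fell. In Odc TH2 cells the counts were 8 and 0 with (0.58) and 3 and 7 without (-0.29), against 29.9% and 29.3%. In Odc TH17 cells 9 rose and 0 fell with (0.61) and 6 rose and 2 fell without (0.14), against 25.6% and 22.2%. In Odc Treg cells 8 rose and 1 fell with (0.29) and 5 rose and 1 fell without (0.13), against 32.9% and 26.9%. The Dohh medians in TH1, TH2, TH17 and Treg cells were 1.57, 1.13, 1.27 and 1.71 with and 0.40, 0.59, 0.14 and 0.68 without. With a match 8, 8, 8 and 8 of 11 rose and 0, 0, 1 and 1 fell, and without one 6, 7, 7 and 9 of 15 rose and 3, 0, 2 and 0 fell, where 25.9%, 23.8%, 27% and 28.4% of all genes rose and 24.1%, 21.5%, 24.9% and 25% fell. The risers without a match were thus below the share of all genes in Odc TH1 and TH2, near it in Odc Treg cells and above it in Odc TH17 cells and all Dohh subsets. Single genes went against this split in both groups. Derl3 has an ERSE and fell in Dohh TH17 and Treg cells and in Odc Treg cells, and Syvn1 has one and passed in no Dohh comparison. Without a match in their windows, Sdf2l1 and Pdia3 rose in all 8 comparisons, Sec61b in 7, Pdia4 in 6 and Derl2 and Edem1 in 5. These are descriptions without a test, a match is not shown to be a bound site, and the 6 genes without a window, Hyou1, Manf and Hspa13 among them, are in neither group.

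**Figure D5:**
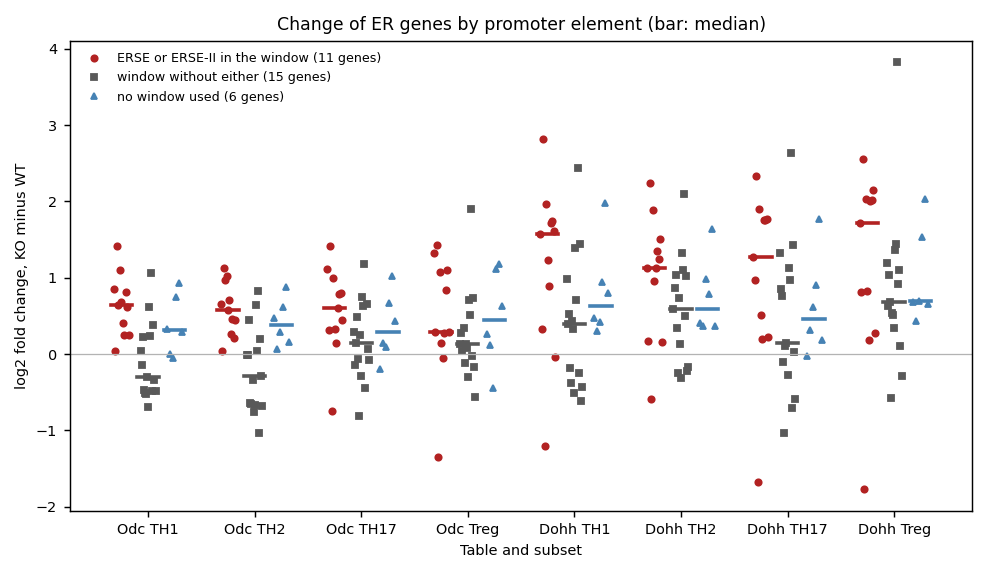
Log2 fold change (KO minus WT, vertical axis) of the 11 genes with an ERSE or ERSE-II match and the 15 without in their promoter window, with the 6 genes that had no window, 1 point per gene, in each of the 8 comparisons, with the median as a line. The medians of the genes with a match are higher than those without in all 8 comparisons, and Derl3 is the lowest point among the matched genes in the 4 Dohh comparisons.

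Lists of other genes of the same routes gave the setting. Of 8 genes of the PERK arm (Atf4 and genes downstream of it), 3, 2, 2 and 2 rose and 1, 1, 0 and 0 fell in TH1, TH2, TH17 and Treg cells of the Odc table, and 5, 5, 4 and 6 rose and 0, 1, 3 and 2 fell in the Dohh table. In Dohh TH2 cells the 2 with the lowest adjusted p were Asns, an ATF4 target that makes asparagine (2.34 ± 0.31 on the log2 scale, SE, edgeR adjusted p = 6.3e-06) and Trib3, another ATF4 target (2.38 ± 0.32, 7.08e-06). In Dohh TH17 cells they were Ppp1r15a, the phosphatase subunit that reverses PERK signalling, which fell (-1.45 ± 0.18, 1.78e-06), and the stress factor Atf3, which rose (2.06 ± 0.27, 4.14e-06). The arm thus moved in both directions in that comparison. Of 21 tested genes of the translocon, signal peptidase and oligosaccharyltransferase, 10, 4, 14 and 13 rose in the Odc and 16, 9, 10 and 14 in the Dohh table, and 2, 4, 1 and 4 and 1, 0, 0 and 0 fell. Of 18 ER redox genes and foldases 8, 6, 9 and 10 and 6, 8, 9 and 9 rose and 2, 4, 2 and 3 and 2, 1, 3 and 1 fell, with medians from 0.15 to 0.57. Of 16 genes of the COPII coat and of retrieval to the ER, 9, 7, 4 and 5 fell in the Odc and 8, 8, 7 and 7 in the Dohh table, among them the coat gene Sec23a in Odc TH1 cells (-1.20 ± 0.15, adjusted p = 1.2e-06), while 3, 2, 5 and 3 and 3, 4, 6 and 7 rose. Of 12 tested cytosolic chaperones 7, 7, 4 and 5 rose in the Odc and 9, 6, 4 and 7 in the Dohh table and 2, 2, 2 and 3 and 0, 1, 3 and 0 fell, the HSP70 relative Hsph1 having the lowest adjusted p in TH1 cells of both (1.65 ± 0.26 and 1.35 ± 0.21). Of 14 other ER degradation genes 10, 8, 7 and 7 and 8, 4, 5 and 6 rose, and 1, 1, 1 and 2 fell in either table. Of the glycan quality control genes, 12 tested in the Odc and 11 in the Dohh table, 3, 2, 5 and 5 and 2, 3, 2 and 4 rose and 2, 3, 1 and 2 and 1, 3, 4 and 0 fell. Of 8 other regulators 1, 1, 3 and 2 and 0, 1, 1 and 2 rose and 2, 3, 3 and 1 and 2, 2, 2 and 2 fell. These counts are to be read against all genes tested, of which 29.1%, 29.9%, 25.6% and 32.9% rose and 27.7%, 29.3%, 22.2% and 26.9% fell in the Odc subsets, and 25.9%, 23.8%, 27% and 28.4% rose and 24.1%, 21.5%, 24.9% and 25% fell in the Dohh subsets. The risers of the PERK arm were near or below that share in the Odc table and above it in the Dohh table, and those of the translocon list were below it in Odc TH2 cells and above it elsewhere. Risers were near it for the redox genes in Odc TH2 and Dohh TH1, for the cytosolic chaperones in TH17 cells of both tables and for other ER degradation in Dohh TH2 and TH17, and above it in the other comparisons of these lists. The regulators were below it in each comparison but Odc TH17, and the glycan quality control genes were on either side of it. Fallers were above the share of all genes for the COPII list in Odc TH1 and TH2 and all Dohh subsets and near it in Odc TH17 and Treg cells, and for the other lists they were near or below it in most comparisons. The COPII risers in Dohh TH17 and Treg cells, 6 and 7 of 16, were above the share of all genes too. The median log2 fold change of the COPII list was -0.22 in Dohh TH17 and 0.26 in Dohh Treg cells.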

How the data were processed

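Messenger RNA of polarized CD4 T cells had been sequenced in 31 Odc and 24 Dohh libraries. The values are gene counts as the authors deposited them, not normalized, in 1 table per line. Per the labels' processing notes STAR, featureCounts, deepTools, DESeq2 and the build mm10 were used. Versions, annotation and the use of strand in counting are not given in the sources used here.

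The 32 genes, the 8 lists of related genes and the tests were chosen with earlier results of these data known. Of the 47937 gene identifiers, 47310 matched the GENCODE annotation given for this work by identifier, and the 627 others held 0.0385% of the Odc and 0.0131% of the Dohh counts. Genes were filtered with filterByExpr, scaled by TMM and tested with edgeR 4.0.16 (quasi-likelihood, robust, 1 mean for each of the 8 groups of a table, R 4.3.3), with p-values adjusted by Benjamini-Hochberg over all genes tested, two-sided, at 0.05. Fold changes carry the SE of the fit. An F test asked whether KO minus WT differed between subsets, and a joint fit over both tables asked whether it differed between Odc and Dohh. All 32 genes are named, and of the related lists counts and at most 2 genes with the lowest adjusted p. The scripts were tested on simulated counts.

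Nothing in the labels says that replicates of a group came from separate mice, so p-values measure the spread between these libraries. No 2 libraries of a group agreed within sampling noise. The interval of a difference is that of the fit and takes in the spread between these libraries. The limits of a count of 0 cover counting error only. Libraries of WT and KO with the same replicate number did not all deviate together (r = -0.0858 to 0.196 in the Odc and -0.0272 to 0.136 in the Dohh table, over 0.1 in 6 of 15 and 1 of 12 pairs), so the numbers were not used to pair them. Libraries of 1 genotype from different subsets with the same number mostly did, with r over 0.1 in 24 of 24 Odc WT, 20 of 21 Odc KO, 15 of 18 Dohh WT and 13 of 18 Dohh KO pairs (medians 0.284, 0.249, 0.151 and 0.204), and the comparisons of subsets take them as independent. Alternatives were DESeq2 1.42.0, RLE size factors, no low-count filter, a filter at a mean count of 50, a fit on 2 groups alone, a replicate block, stricter thresholds and leaving out libraries.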

Additional observations from a re-analysis of the deposited data

Results flagged for a closer look

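Of 224 groups of 4 libraries (32 genes), 37 held a library farther from the others than Dixon's 95% limit for 4 samples, where chance alone gives about 1 in 20. The share over all genes was not taken, so the excess is not shown to be particular to these genes. Odc WT replicate 4 was the library in most of the 37, always as the highest. For 13.9% of all genes tested, too, it was the highest WT library in all 4 subsets. In TH1 cells it stood at 75.2 CPM for Sdf2l1, 163 for Manf, 38.3 for Creld2 and 303 for Pdia6, and in TH2 cells at 408 for Pdia6 and 66.5 for Herpud1. In TH17 cells it stood at 628 CPM for Hspa5, 194 for Hyou1, 105 for Dnajb11, 73.1 for Sdf2l1, 724 for Hsp90b1, 158 for Manf, 646 for Calr, 496 for Canx, 553 for Pdia3, 161 for Pdia4 and 282 for Pdia6. In Treg cells it stood at 192 CPM for Hyou1, 116 for Dnajb11, 55.5 for Sdf2l1, 136 for Manf, 44.2 for Creld2, 578 for Calr, 557 for Pdia3, 192 for Pdia4, 214 for Pdia6 and 96.4 for Herpud1.

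Odc KO replicate 1 was the lowest TH1 KO library for Dnajb11 (109 CPM), Dnajc3 (79.7) and Sdf2l1 (78.5), and the highest KO library for Syvn1 and Derl3 in TH1 (98.3 and 4.23) and for Xbp1 and Derl1 in Treg cells (451 and 129). The others were WT replicate 2, lowest for Calr in TH2 (656) and highest for Eif2ak3 in TH1 cells (91), and KO replicate 4, highest for Xbp1 in TH17 cells (212).

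The KO effect differed between subsets, by the F test of the interaction, for Edem2 (adjusted p = 5.71e-05), Os9 (0.00102), Herpud1 (0.00301), Sec24d (0.0034), Ern1 (0.00649), Pdia4 (0.0125), Derl3 (0.0154), Hspa13 (0.0156), Pdia6 (0.0166), Dnajc3 (0.0214) and Atf6 (0.0494) in the Odc table, and for Herpud1 (0.00137), P4hb (0.0324) and Canx (0.035) in the Dohh table.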

How the results depend on the processing

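For the 32 genes, 640 results (fold changes, subset and table differences) were recomputed under the alternatives, giving 11050 values. Of these 10393 kept their side of the threshold, 480 no longer passed and 177 newly passed. None that passed in either fit turned direction, while 188 that passed in neither differed in sign. A further limit is the design, in which WT and KO share no animal and each table has its own depth and WT level. With a change above 2-fold also required, the risers were 3, 2, 5 and 7 in Odc TH1, TH2, TH17 and Treg cells and 11, 11 and 14 in Dohh TH1, TH17 and Treg cells, the fallers 0, 1, 0 and 1 in the Odc subsets and 0 in Dohh TH1, and the targeted genes that fell 0. Except where a share of all genes was given above, the counts from here on stand without one. They show how calls moved and are not read as above or below the background. At an adjusted p below 0.01, 1 gene fell in Odc TH17, the effect differed between subsets for 5 in the Odc and 1 in the Dohh table and between tables for 8, 6 and 7 in TH1, TH2 and TH17, and 0 targeted genes fell. DESeq2 called 5 down in Odc Treg, 1 in Dohh TH2 and 2 in Dohh Treg, and 6 with a subset difference in Dohh. RLE size factors gave 5 down in Odc Treg. No low-count filter left 1 Dohh subset difference. A mean count of at least 50 left 0 down in Dohh Treg, where Derl3 is then not tested, and 19 table differences in TH2. With only the 2 groups compared, 0 fell in Dohh TH1 and 2 in Dohh Treg. The cause was not tested. Leaving out Odc KO replicate 1, chosen after seeing the data, gave 5 down in TH17, WT replicate 4 gave 5 down in Treg, and KO replicate 3 gave 0 targeted genes. Leaving out Dohh KO replicates 2 and 3 gave 1 down in TH1 and 3 in Treg.

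When libraries were dropped singly, the genes that rose ran from 12 to 18, 12 to 15, 17 to 19 and 13 to 17 in the Odc and 17 to 20, 16 to 18, 16 to 18 and 18 to 22 in the Dohh subsets, and those that fell in Treg cells from 2 to 5 (Odc) and 1 to 2 (Dohh). The Dohh subset differences ran from 1 to 9, the TH2 table differences from 7 to 13, and the targeted genes that fell from 0 to 1. With the replicate number as a block, 4 genes fell in Odc TH17 in place of 2, the subset differences were 16 in place of 11 (Odc) and 3 in both fits (Dohh), and the other counts stayed within 1.5 times. The WT and KO libraries share only a number, so this says nothing of weaker effects.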
